A study of Mus musculus with 15 samples.

Results

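The genes followed were *Tmprss2*, *Pth1r*, *Ncmap*, *S100a13*, *Sprr2a1*, *Prr15*, *Mobp* and *Edn1*, 8 of the 48709 genes counted in mouse ESCs losing OCT4. They were chosen by their own values, as standing among the largest increases after OCT4 loss in earlier results on these libraries. The contrast that chose each gene was worked out from those earlier results. *Prr15*, *Mobp* and *Edn1* were assigned to O4AID ESCs at 1.5 h and *Sprr2a1* and *Tmprss2* to O4AID ESCs at 24 h. *Pth1r*, *Ncmap* and *S100a13* were assigned to CreER ESCs at 36 h. The contrast that chose a gene is given below as a description with no test. Tests were kept to CreER libraries that, by this assignment, did not choose the gene.

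OCT4 was lost by either of 2 routes, and both lines were cultured in N2B27 with PD03, Chiron and mLIF. CreER ESCs have the genotype Oct4Fl/-; CAG CreER on a Mixed 129SV C57BL/6 background, and 4-OHT (500 nM) activates their ubiquitously expressed Cre to delete the only intact *Oct4* allele. They were sampled untreated (0 h) and after 12, 18, 24 and 36 h of 4-OHT, with 2 libraries at each time. O4AID ESCs have the genotype Oct4-/- with the transgenes TetOFF Oct4, CAG Oct4AID and CAG Tir1 on a 129SV background and were derived from the ZHBTc4 line. Doxycycline keeps their wild-type *Oct4* transgene silent in every library, the untreated one included, so they live on OCT4 fused to an auxin-inducible degron. IAA (500 µM), an auxin, sends that fusion protein to degradation through Tir1. Samples were taken before IAA and 1.5, 6, 10 and 24 h into it, with 1 library each. A comparison within O4AID therefore compares single libraries and not conditions. No library received 4-OHT without losing *Oct4*, or IAA without losing the fusion protein, so OCT4 loss, the drug and time in culture cannot be told apart within either line. In the study's qRT-PCR and western blot course of *Oct4* deletion, the medium was switched to serum with LIF along with 4-OHT. The study does not say whether the CreER libraries shared that switch, which could not be told apart either.

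The 8 genes come from unrelated families. OCT4 holds ESCs in the pluripotent state, and ESCs deprived of it turn towards trophectoderm, the first extraembryonic epithelium. *Tmprss2* encodes a membrane-anchored serine protease of epithelia, *Pth1r* the receptor shared by parathyroid hormone and its related peptide, and *Edn1* the vasoconstrictor peptide endothelin 1. *Sprr2a1* encodes a small proline-rich precursor of the cornified envelope of keratinocytes, and *S100a13* a small calcium-binding protein of the S100 family. *Ncmap* and *Mobp* are best known from myelin, of Schwann cells and oligodendrocytes respectively, and *Prr15* encodes a small proline-rich protein of gut epithelium and trophoblast.

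Sequences are shown for *Sprr2a1* and *S100a13*, the former because its copies share its sequence and the latter because it lies beside a gene that moved with it in CreER. *Sprr2a1* is 1 of 3 closely related copies on chromosome 3. The windows of 250 bases before to 50 after the start site (RefSeq, GRCm38.p6) of *Sprr2a1* and of *Sprr2a2*, at chr3:92250397-92250696, were identical over all 300 bases. Capitals below mark the run of 272 bases that the *Sprr2a1* and *Sprr2a3* windows share.
*Sprr2a1*, chr3:92215585-92215884, plus strand: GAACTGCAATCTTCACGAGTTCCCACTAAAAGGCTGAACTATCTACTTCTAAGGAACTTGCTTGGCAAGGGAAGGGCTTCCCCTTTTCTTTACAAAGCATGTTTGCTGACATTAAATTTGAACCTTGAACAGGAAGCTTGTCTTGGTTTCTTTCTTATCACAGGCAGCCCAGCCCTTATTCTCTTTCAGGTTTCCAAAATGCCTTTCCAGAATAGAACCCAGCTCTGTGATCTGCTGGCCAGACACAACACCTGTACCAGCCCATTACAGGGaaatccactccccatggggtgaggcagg
*Sprr2a3*, chr3:92285054-92285353, plus strand: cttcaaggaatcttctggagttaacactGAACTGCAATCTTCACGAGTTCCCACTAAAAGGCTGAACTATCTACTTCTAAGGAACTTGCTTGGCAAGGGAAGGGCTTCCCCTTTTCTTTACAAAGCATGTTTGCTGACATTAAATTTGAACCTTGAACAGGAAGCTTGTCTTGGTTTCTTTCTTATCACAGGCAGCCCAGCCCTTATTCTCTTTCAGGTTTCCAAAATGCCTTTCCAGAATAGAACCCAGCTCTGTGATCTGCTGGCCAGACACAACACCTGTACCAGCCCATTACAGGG
*S100a13* starts 42 bases past *S100a1*, which is read from the other strand, and their windows overlap by 204 bases. Capitals mark a match, on the minus strand, to GCGTG, the core of the element bound by the aryl hydrocarbon receptor (AhR).
*S100a13*, chr3:90514185-90514484, plus strand: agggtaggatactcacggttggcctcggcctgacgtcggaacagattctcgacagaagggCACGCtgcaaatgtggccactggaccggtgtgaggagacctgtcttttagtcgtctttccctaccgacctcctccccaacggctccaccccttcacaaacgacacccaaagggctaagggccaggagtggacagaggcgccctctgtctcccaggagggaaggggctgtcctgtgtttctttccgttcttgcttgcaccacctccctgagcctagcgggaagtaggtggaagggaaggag

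The libraries held 21655083 to 30774618 counted reads in CreER and 40537353 to 48719670 in O4AID. *Pou5f1*, the gene of OCT4, stood at 317 and 321 CPM (read counts scaled by TMM factors to a library of 1e+06 reads) in the untreated CreER libraries and at 112 and 123 CPM after 36 h. The log2 fold change was -1.43 (SE 0.045, edgeR adjusted p = 4.15e-19). In O4AID, where IAA acts on the protein, it ran from 766 CPM untreated to 866 after 1.5 h of IAA and 633 after 24 h. These cells are Oct4-/- and carry *Oct4* transgenes, so their counts do not measure an intact endogenous gene. All 9 markers of naive ESCs were in the CreER fit, and their summed level was 1750 to 1780 CPM in untreated CreER and 5120 CPM in untreated O4AID. At 36 h in CreER 2 of the 9 had risen, against 19.4% of all genes, and 4 had fallen, against 17.2%. At 24 h in O4AID all 9 were at least 2-fold lower, against 2.64% of all genes. The 12 trophectoderm markers summed to 346 to 360 CPM at 0 h and 703 to 732 CPM at 36 h in CreER, where 12 of 12 rose, against 19.4% of all genes. In O4AID they summed to 173 CPM at 0 h and 200.0 CPM at 24 h. There 3 of the 12 were at least 2-fold higher, against 3.40% of all genes, and 1 lower, against 2.64%. The O4AID sums rest largely on *Tfap2c*, at 92.2 and 81.4 CPM, and *Tead4*, at 52.6 and 19.0 CPM. They therefore do not give the course of the other markers. The 10 primitive endoderm markers went from 396 to 426 CPM up to 600.0 to 626 CPM in CreER. Of the 9 tested there, 4 rose, against 19.4% of all genes, and 2 fell, against 17.2%. In O4AID these markers went from 625 to 824 CPM, of which *Sparc* alone held 296 and 459 CPM. There 4 of the 9 compared were at least 2-fold higher, against 3.40% of all genes. The part of these marker genes in the results below was not tested. In such bulk samples, more cells of a type and more RNA per cell cannot be told apart.

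The values that chose the genes were as follows. Among genes with a mean of at least 50 counts in the 2 O4AID libraries compared, *Prr15* ranked 2 and *Edn1* 3 of 13492 at 1.5 h, at log2 changes of 1.49 and 1.18 on the scale of CPM plus 1. *Cyp1a1*, an AhR target, ranked first at 2.82, and *Chac1* stood just outside at 1.03. *Mobp*, at 0.93, had a mean of 43 counts and fell short of that minimum. At 24 h *Sprr2a1* ranked 3 and *Tmprss2* 5 of 13758 at 5.02 and 4.79, among *Cyp1a1* at 7.39, *Cyp1b1* at 6.12 and *Peg10* at 4.81, and *H19* stood just outside at 4.64. In CreER at 36 h, among 13352 genes, *Pth1r*, *Ncmap* and *S100a13* ranked 1, 2 and 4 at log2 fold changes of 2.85, 2.81 and 2.64, with the trophectoderm factor *Hand1* at 2.71 between them and *Cchcr1* just outside at 2.64. *Tmprss2*, chosen on O4AID, ranked 8 in that CreER contrast at 2.56.

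Before treatment the levels of most of these genes stood apart between the lines, as the plot of levels by time shows. Per kilobase of exon, *S100a13* was the highest of the 8 in both lines, at 4.68 CPM per kb in CreER and 45.8 in O4AID. In CreER *Edn1* followed at 2.20 CPM per kb, then *Pth1r* at 0.823, *Tmprss2* at 0.595, *Mobp* at 0.409 and *Ncmap* at 0.318. The ranges of the 2 libraries did not overlap between any neighbours in this order. These ranges leave out counting error, which is large for *Ncmap* at 21 and 18 reads, so the order of close neighbours is not settled by them. *Prr15* and *Sprr2a1* came last in CreER, with 4 and 6 reads and with 2 and 2 reads. In O4AID the order was *Ncmap* at 3.59 CPM per kb, *Prr15* at 1.10 and *Edn1* at 0.67 after *S100a13*. The last 4, *Sprr2a1*, *Tmprss2*, *Pth1r* and *Mobp*, held 10 to 17 reads each and had overlapping counting intervals. The level in the untreated O4AID library divided by the mean of the untreated CreER libraries was 19.5 for *Prr15*, 11.3 for *Ncmap* and 9.8 for *S100a13*, but 0.0946 for *Pth1r*, 0.145 for *Tmprss2*, 0.146 for *Mobp* and 0.305 for *Edn1*. The lines differ in strain as well as in how OCT4 is supplied, so these ratios describe 2 lines.

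**Figure D1:**
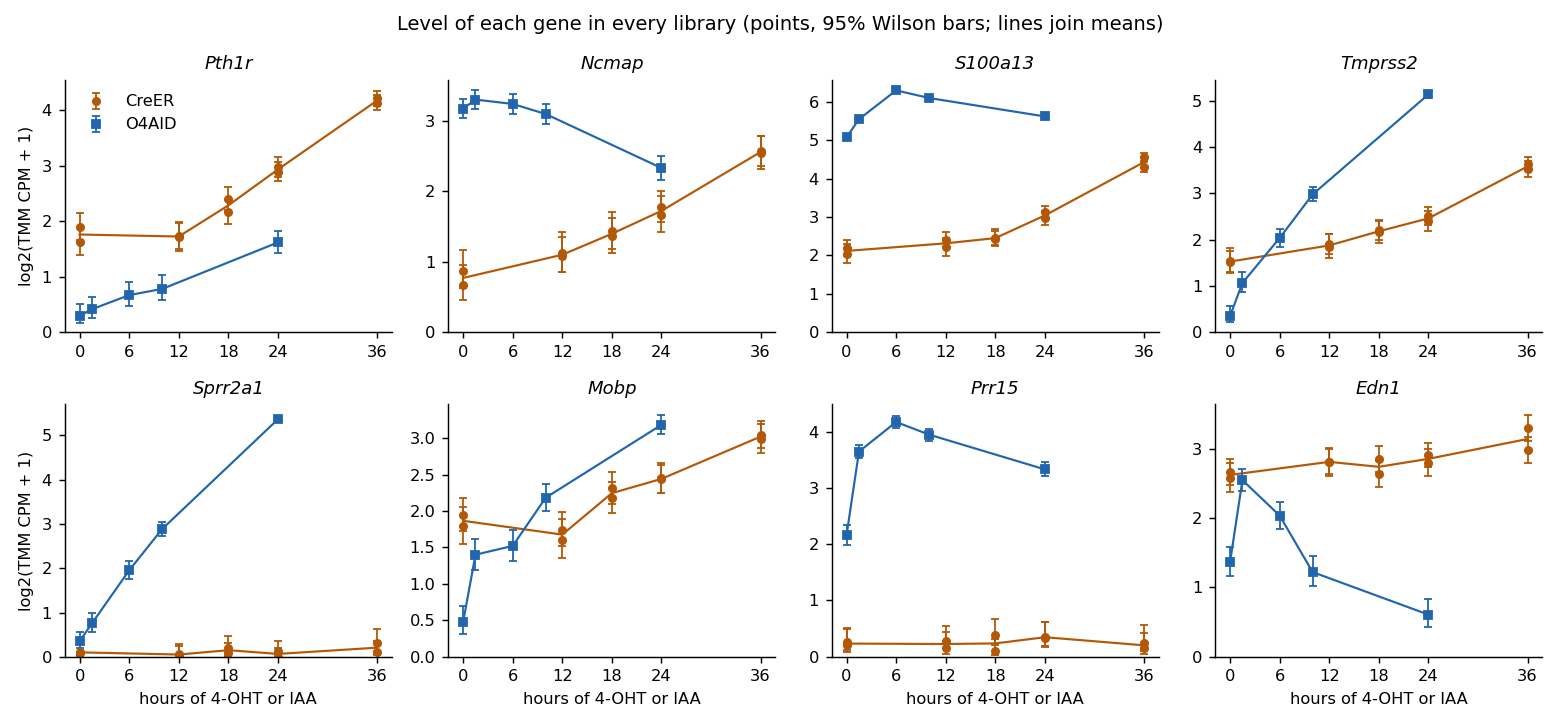
Level of each of the 8 genes as log2(TMM CPM + 1) against hours of 4-OHT (CreER, circles, 2 libraries at each time) or IAA (O4AID, squares, 1 library at each time). Bars are 95% Wilson intervals, which cover counting error only, and lines join the means. *Sprr2a1* and *Prr15* stay near 0 in CreER while they climb in O4AID, and *Ncmap* and *Edn1* end below their start in O4AID only.

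Within CreER, the question was at which step the genes moved. Of the 8 genes, 6 had enough reads to be tested and 5 rose between 12 and 24 h: *Pth1r*, *Mobp*, *Ncmap*, *S100a13* and *Tmprss2*. Neither time entered the choice. Yet *Pth1r*, *Ncmap* and *S100a13* were chosen for rising from 0 to 36 h in this same course, where *Tmprss2* ranked 8. For these genes a rise over a step inside the course was likely beforehand. The shares of all genes given here are therefore no independent yardstick for them. The share of all 18969 tested genes that rose over that step was 7.30%. The median log2 fold change was 0.94 over the 6 genes and 0.01 over all genes. *Edn1* was at 0.06 (adjusted p = 0.809), and *Sprr2a1* and *Prr15* had too few reads. Between 12 and 18 h *Pth1r* and *Mobp* rose, 2 of the 6, against 1.04% of all genes. Both calls at 18 h were lost without replicate 1 of 12 h, without replicate 2 of 12 h or without replicate 1 of 18 h. Between 18 and 24 h *Pth1r* and *S100a13* rose, 2 of the 6, against 0.749% of all genes. Both of these calls were lost without replicate 2 of 18 h, and that of *S100a13* also without replicate 1 of 24 h. The 3 steps share libraries at 12, 18 or 24 h. Tests were edgeR quasi-likelihood F tests with Benjamini-Hochberg adjustment over all genes, and nothing in the labels says that replicates came from separate cultures, so p-values measure the spread between libraries.

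The genes chosen on O4AID could also be compared with untreated CreER libraries. Of the 5, 3 could be tested. None rose at 12 h by edgeR, where 1 of them, *Tmprss2*, had an unadjusted p under 0.05 and DESeq2 likewise called 0, against 0.258% of all genes. *Tmprss2* and *Mobp* rose at 18 h, against 4.73%, and at 24 h, against 11.0%. *Tmprss2* also ranked 8 in CreER at 36 h against 0 h, so its choice may have used the 0 h libraries of these tests. *Mobp* at 18 h (adjusted p = 0.0479) was called in 3 of 17 alternative analyses, with adjusted p of 0.0442 to 0.306, and leaving out any 1 of the 8 libraries at 0 to 24 h ended that call. *Tmprss2* at 18 and 24 h and *Mobp* at 24 h were called in 17 of 17. At 36 h, 19.4% of all genes were higher and 17.2% lower than at 0 h, a contrast that the choice used.

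*Pth1r* (ENSMUSG00000032492; this and the positions below are on GRCm38) is read from the minus strand of chromosome 9, at 110722085 to 110747145. The CreER replicates of *Pth1r* stood at 2.73 and 2.08 CPM untreated, 2.32 and 2.29 after 12 h, 4.30 and 3.49 after 18 h, 6.44 and 6.86 after 24 h, and 17.6 and 16.6 after 36 h. The 12 h libraries lay within the untreated range, and from 18 h on each time lay above the one before with no overlap. Its log2 fold change was 0.76 from 12 to 18 h (SE 0.167, adjusted p = 0.0155), 0.78 from 18 to 24 h (SE 0.135, adjusted p = 0.00153) and 1.53 from 12 to 24 h (SE 0.15, adjusted p = 3.56e-08). In O4AID, which by the assignment above did not choose the gene, *Pth1r* was at 0.228 CPM before IAA and 0.332, 0.589, 0.717 and 2.07 CPM after 1.5, 6, 10 and 24 h of it. The 24 h library held 95 reads against 10, a CPM ratio of 9.11 (95% exact counting interval 4.74 to 19.6), and the ratio at 1.5 h was 1.46 (0.603 to 3.67). *Myl3*, which overlaps *Pth1r* on the other strand, held at most 9 reads in any library, and the strand setting of the counting was not stated.

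*Ncmap* (ENSMUSG00000043924) is read from the minus strand of chromosome 4, at 135369576 to 135398227. In CreER it stood at 0.820 and 0.594 CPM untreated, 1.11 and 1.17 after 12 h, 1.70 and 1.56 after 18 h, 2.42 and 2.17 after 24 h, and 4.93 and 4.82 after 36 h. Each time lay above the one before with no overlap. From 12 to 24 h its log2 fold change was 1.03 (SE 0.211, adjusted p = 0.00124), and from 12 to 18 h it was 0.52 (adjusted p = 0.333). O4AID went the other way, with 7.99 CPM before IAA and 8.83, 8.42, 7.53 and 4.02 CPM after 1.5, 6, 10 and 24 h of it. The 24 h library stood at a CPM ratio of 0.502 to 0 h (0.418 to 0.602), and the intervals at the 3 earlier times included 1. At 24 h O4AID stood at 4.02 CPM and CreER at 2.30 ± 0.172 CPM (SD, n = 2).

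*S100a13* (ENSMUSG00000042312) is read from the plus strand of chromosome 3, at 90514435 to 90524581. Its CreER libraries stood at 3.12 and 3.57 CPM untreated, 4.32 and 3.66 after 12 h, 4.53 and 4.41 after 18 h, 7.70 and 6.82 after 24 h, and 22.6 and 18.8 after 36 h. No time overlapped the one before, yet of the steps to and from 18 h only the later passed the test. The log2 fold change was 0.16 from 12 to 18 h (adjusted p = 0.716) and 0.71 from 18 to 24 h (SE 0.132, adjusted p = 0.00291). In O4AID it was at 32.8 CPM before IAA and 45.9, 78.0, 67.8 and 48.3 CPM after 1.5, 6, 10 and 24 h of it. The peak at 6 h was a CPM ratio of 2.38 to 0 h (2.23 to 2.53), and the 24 h library stood at 0.712 of the 10 h library (0.673 to 0.754).

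The neighbour *S100a1*, whose window overlaps the one shown above, moved in the same direction in CreER, with another course in O4AID. It encodes a calcium-binding protein best known from heart muscle. In CreER it rose from 0.905 ± 0.121 CPM at 0 h to 4.95 ± 0.0853 CPM at 36 h (SD, n = 2), by 2.44 on the log2 scale (SE 0.199, adjusted p = 1.09e-10), and by 0.77 from 12 to 24 h (SE 0.225, adjusted p = 0.0215). In O4AID *S100a1* was at 20.3, 19.7, 30.6, 41.9 and 61.7 CPM in order of time, so that it was still climbing when *S100a13* had passed its peak. The other neighbour, *S100a14*, held at most 10 reads in any library.

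**Figure D2:**
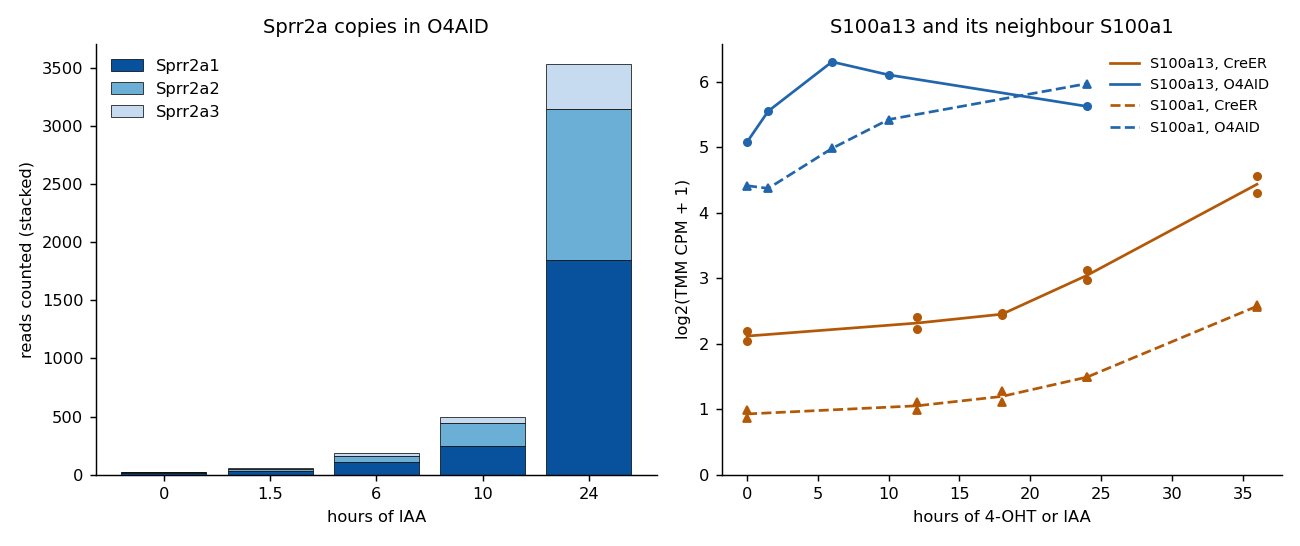
Left, reads counted for *Sprr2a1*, *Sprr2a2* and *Sprr2a3* in the O4AID library at each time, stacked, from 23 reads at 0 h to 3526 at 24 h. Right, levels of *S100a13* (circles, solid lines) and *S100a1* (triangles, dashed lines) as log2(TMM CPM + 1) in every library of both lines, with lines through the means. The dashed O4AID line is still rising at 24 h, where the solid one has come down from its 6 h peak.

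*Tmprss2* (ENSMUSG00000000385) is read from the minus strand of chromosome 16, at 97564684 to 97611195, and ranked among the first 8 genes both in O4AID at 24 h and in CreER at 36 h. In O4AID it held 12 reads before IAA and 46, 121, 269 and 1569 reads after 1.5, 6, 10 and 24 h of it, or 0.273, 1.09, 3.10, 6.89 and 34.3 CPM. The CPM ratio to the untreated library was 4.0 (2.08 to 8.29) after 1.5 h and 125 (71.5 to 243) after 24 h, and each library lay above the one before by more than counting error. In CreER it stood at 1.91 and 1.85 CPM untreated, 2.73 and 2.61 after 12 h, 3.47 and 3.60 after 18 h, 4.71 and 4.31 after 24 h, and 11.4 and 10.6 after 36 h. No time overlapped the one before. Relative to untreated cells, *Tmprss2* did not pass after 12 h (log2 fold change 0.51, SE 0.176, adjusted p = 0.307). It rose by 0.92 after 18 h (SE 0.166, adjusted p = 0.000544) and by 1.27 after 24 h (SE 0.157, adjusted p = 7.79e-07). From 12 to 24 h it rose by 0.76 (SE 0.145, adjusted p = 0.000537). At 24 h, O4AID stood at 34.3 CPM and CreER at 4.51 ± 0.282 CPM (SD, n = 2), the reverse of their untreated order.

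*Sprr2a1* (ENSMUSG00000078664) is read from the plus strand of chromosome 3, at 92215799 to 92221911, 1691217 bases from *S100a13*. In O4AID it held 12 reads before IAA and 29, 112, 250 and 1843 reads after 1.5, 6, 10 and 24 h of it, or 0.273, 0.689, 2.87, 6.40 and 40.2 CPM. The ratio at 24 h was 147 (84.1 to 285), and each library lay above the one before by more than counting error. In CreER *Sprr2a1* held 0 to 5 reads in each of the 10 libraries, with at most 3 in 8 of them, so no change could be measured at this depth.

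The counts of *Sprr2a1* cannot be fully told from those of its copies. Of the 50-base stretches in its annotated transcripts, 92.5% also occur in those of *Sprr2a2*, whose annotation overlaps it on the same strand (92215920 to 92256724), and 58.6% in those of *Sprr2a3*, and how the counting treated reads with several matches was not stated. *Sprr2a2* went from 8 to 1299 reads and *Sprr2a3* from 3 to 384 reads in O4AID between 0 and 24 h, while neither exceeded 6 reads in a CreER library. The 3 together went from 23 reads (0.524 CPM) at 0 h through 55, 184 and 496 reads to 3526 reads (77.0 CPM) at 24 h. *Sprr2a1* took 52.2% of them untreated (95% Wilson interval 33.0 to 70.8), 60.9% after 6 h (53.7 to 67.6) and 52.3% after 24 h (50.6 to 53.9).

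**Figure D3:**
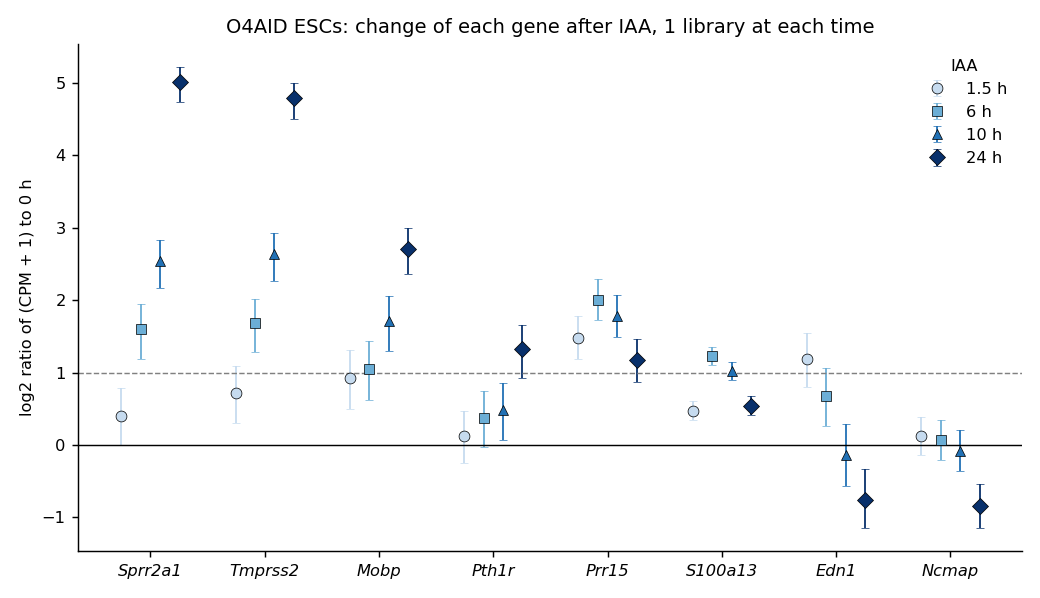
Log2 ratio of CPM plus 1 between each O4AID library after IAA and the 0 h library, for the 8 genes. Markers give the 4 times, and the dashed line marks a ratio of 2. Bars divide a 95% Wilson bound of one library by the opposite bound of the other. They cover counting error only, are wider than a 95% interval of the ratio and differ from the exact intervals in the text. *Sprr2a1*, *Tmprss2*, *Mobp* and *Pth1r* are highest at 24 h, *Prr15* and *S100a13* at 6 h and *Edn1* at 1.5 h.

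In O4AID the genes thus reached their highest level at different times. At least a 2-fold higher level than at 0 h, on the scale of CPM plus 1, was seen for 2 of the 8 genes after 1.5 h (*Prr15* and *Edn1*) and for 5 after each of 6, 10 and 24 h. The shares of all genes were 0.0204%, 0.362%, 0.955% and 3.40% at these times. These counts depend on the added 1 CPM. With 0.1 CPM they were 5, 6, 6 and 5 genes, against 1.28%, 2.5%, 3.97% and 8.65% of all genes. With 5 CPM they were 0, 2, 3 and 3 genes, against 0.00509%, 0.102%, 0.32% and 1.21% of all genes. The choice itself used the 1.5 and 24 h libraries for 5 of the genes, and of the 3 chosen on CreER none passed at 1.5 h, *S100a13* passed at 6 and at 10 h and *Pth1r* at 24 h. All 4 comparisons share the 0 h library. Beside these values, 1 of 6 AhR target genes was at least 2-fold higher at 1.5 h and 5 of 6 at 24 h in O4AID, where the other was at least 2-fold lower, and the 6 together summed to 171 CPM untreated, 198 CPM after 1.5 h and 892 CPM after 24 h. In CreER at 36 h, 3 of the 6 had risen, against 19.4% of all genes, and 1 had fallen, against 17.2%. *Cyp1a1* was not called under total-count scaling. The part of these genes in the values of the 8 genes was not tested.

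*Prr15* (ENSMUSG00000045725) is read from the plus strand of chromosome 6, at 54325835 to 54330201. In O4AID it was at 3.46 CPM (152 reads) before IAA and 11.5, 17.0, 14.4 and 9.04 CPM after 1.5, 6, 10 and 24 h of it. Relative to the untreated library the ratio was 3.32 (2.76 to 4.01) after 1.5 h, 4.90 (4.10 to 5.88) after 6 h and 2.61 (2.16 to 3.17) after 24 h, so *Prr15* came down after 6 h and at 24 h stood below its 1.5 h level, at a ratio of 0.786 (0.688 to 0.899). In CreER it held 2 to 9 reads in each library and was left out of the tests. The antisense transcript *9130019P16Rik* overlaps it and held at most 18 reads in any library.

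*Edn1* (ENSMUSG00000021367) is read from the plus strand of chromosome 13, at 42301270 to 42307989. Its highest O4AID level came at 1.5 h, with 1.57 CPM before IAA and 4.84, 3.10, 1.33 and 0.524 CPM after 1.5, 6, 10 and 24 h of it. Relative to the untreated library the ratio was 3.08 (2.34 to 4.11) after 1.5 h, 0.848 (0.580 to 1.23) after 10 h and 0.333 (0.200 to 0.537) after 24 h, so that the last library stood at 0.108 of the 1.5 h library (0.0677 to 0.166). In CreER *Edn1* stood at 4.96 and 5.35 CPM untreated, 6.03 and 5.99 after 12 h, 6.19 and 5.19 after 18 h, 6.50 and 5.96 after 24 h, and 6.88 and 8.85 after 36 h. None of its CreER times passed against untreated cells, with log2 fold changes of 0.22 after 12 h (SE 0.137, adjusted p = 0.697), 0.14 after 18 h (adjusted p = 0.605) and 0.28 after 24 h (SE 0.135, adjusted p = 0.145). No CreER time was earlier than 12 h.

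*Mobp* (ENSMUSG00000032517) is read from the plus strand of chromosome 9, at 120149742 to 120181484, 9402596 bases from *Pth1r*. In O4AID it held 17 reads before IAA and 69, 73, 138 and 370 reads after 1.5, 6, 10 and 24 h of it, or 0.387, 1.64, 1.87, 3.54 and 8.08 CPM. The ratio was 4.23 (2.46 to 7.68) after 1.5 h and 20.9 (12.9 to 36.2) after 24 h, while the 6 and 1.5 h libraries differed by no more than counting error (ratio 1.14, 0.809 to 1.61). In CreER *Mobp* stood at 2.46 and 2.84 CPM untreated, 2.35 and 2.05 after 12 h, 3.96 and 3.53 after 18 h, 4.40 and 4.46 after 24 h, and 7.27 and 6.97 after 36 h. Both 12 h libraries lay below both untreated ones, although the change did not pass the test (-0.27, SE 0.174, adjusted p = 0.714), and each later time lay above the one before. The log2 fold change was 0.76 from 12 to 18 h (SE 0.162, adjusted p = 0.0126), 1.01 from 12 to 24 h (SE 0.156, adjusted p = 4e-05) and 0.74 at 24 h against 0 h (SE 0.15, adjusted p = 0.000651).

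For each gene the pair of genes most like it was sought, by Pearson correlation of log2(CPM + 1) centred within each line, over the 15 libraries and 16162 genes. These values describe libraries that share lines, times and depth. *Pth1r* was most like *Kremen1* (r = 0.991), a receptor for the Wnt inhibitor Dickkopf, and the trophectoderm factor *Hand1* (0.989). *Tmprss2* was most like *Limd1* (0.991) and *Dab2* (0.985), an endocytic adaptor of primitive endoderm that went from 1.05 to 12.0 CPM in O4AID between 0 and 24 h and from 9.27 to 26.1 CPM in CreER between 0 and 36 h. *Ncmap* was most like *Arl8a* (0.976) and the creatine kinase gene *Ckb* (0.973), which also went opposite ways, from 387 to 233 CPM in O4AID and from 96.8 to 205 CPM in CreER over the same times. *S100a13* was most like *Fbxl12* (0.978), and *Mobp* like *Phlda3* (0.977) and *Nfkbia* (0.968), which encodes an inhibitor of NF-kB. *Sprr2a1* was most like its copy *Sprr2a2* (0.993) and *Rragd* (0.992), a GTPase of the mTORC1 pathway. In each CreER library *Sprr2a1* held 0 to 5 reads and *Prr15* 2 to 9, so correlations of these 2 genes rest mainly on the 5 O4AID libraries. *Prr15* and *Edn1* had no partner as close, with *Gm45549* (0.917) and *Siah2* (0.894) for the former and *Coq10b* and *Zglp1* (0.913 each) for the latter. Among the 8 genes themselves, *Tmprss2* and *Mobp* were the pair most alike (r = 0.961), while *Edn1* and *Sprr2a1* were the least alike (-0.662).

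Protein-coding neighbours of the genes took various courses. *Ripk4*, after *Tmprss2*, rose by 0.67 in CreER at 36 h (adjusted p = 2.28e-09) and was at 23.5 CPM at 0 h and 45.7 CPM at 24 h in O4AID. *Chn2*, before *Prr15*, rose by 0.78 in CreER (adjusted p = 6.92e-05) and went from 14.6 to 34.4 CPM in O4AID, but its log2 change at 1.5 h was -0.07 where that of *Prr15* was 1.49. *Phactr1*, which lies 372633 bases past *Edn1*, rose by 1.74 (adjusted p = 2.54e-07). *Rpsa* before *Mobp* was at 0.02 (adjusted p = 0.796), *Ccdc12* before *Pth1r* at -0.28 (adjusted p = 0.0429), and *Rcan3* after *Ncmap* at 0.14 (adjusted p = 0.182).

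Families and pathways of the 8 genes were then examined in CreER at 36 h with the genes themselves left out. Of 94 related genes in 7 lists, 45 could be tested and 28 changed, in both directions, against 36.6% of all genes. By direction, 19.4% of all genes were higher and 17.2% lower, shares against which the counts of each list below are to be read. Membrane serine proteases and their inhibitors, the relatives of *Tmprss2*, numbered 10 in the test, of which 6 rose, against 19.4% of all genes, and 0 fell, with a median log2 fold change of 0.64 against 0.01 over all genes. They included *Prss8*, which encodes prostasin, at 1.10 (adjusted p = 1.38e-12), *St14*, which encodes matriptase, at 0.52 (adjusted p = 8.91e-10), and hepsin (*Hpn*) at 0.66 (adjusted p = 0.000155). The inhibitor *Spint1*, at 0.15 (adjusted p = 0.0268), was not called under total-count scaling, where another gene of the list was called lower. In O4AID, of 7 that could be compared between 0 and 24 h, 2 were at least 2-fold higher, against 3.40% of all genes, and 1 was lower, against 2.64%. The higher ones were *Prss8* at 292 and 1651 reads and *Hpn* at 77 and 382, and the lower one *Tmprss5* at 339 and 80 reads. *Tmprss5*, named after its value was seen, was among the 6 that rose in CreER, at 1.23 (adjusted p = 0.000727). Of the S100 genes 4 of 5 rose, against 19.4% of all genes, namely *S100a1*, *S100a6* at 0.62 (adjusted p = 2.78e-06), *S100a11* at 0.49 (adjusted p = 0.000802) and *S100a10* at 0.14 (adjusted p = 0.0241), the last of which was not called under total-count scaling.

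Among genes of the cornified envelope, to which *Sprr2a1* belongs, more fell than rose in CreER. Of 10 tested in CreER, 1 rose, against 19.4% of all genes, and 4 fell, against 17.2%, with a median of -0.71. *Tgm3*, an epidermal transglutaminase, fell by 2.13 on the log2 scale (adjusted p = 2.56e-08), *Hrnr* by 0.77 (adjusted p = 1.26e-07), *Rptn* by 0.76 (adjusted p = 0.00509) and *Tchh* by 0.66 (adjusted p = 0.000163), and *Sbsn*, named after its value was seen, rose by 0.83 (adjusted p = 0.0113). In O4AID, of 8 listed genes compared, the only ones at least 2-fold higher at 24 h were *Sprr2a2* and *Sprr2a3*, against 3.40% of all genes. The epidermal markers *Lor*, *Ivl*, *Sprr1a* and *Sprr1b* held at most 7 reads in any library of either line, and *Flg* at most 16. The marker *Tgm1* was well expressed in CreER, at 35.8 CPM at 0 h and 32.4 CPM at 36 h (adjusted p = 0.136). In O4AID *Tgm1* stood at 3.35 CPM at 0 h and 3.86 CPM at 24 h. Of the 27 listed genes, 7 held 0 reads in all 15 libraries.

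Myelin genes went both ways beside *Ncmap* and *Mobp*. Of 12 tested, 4 rose, against 19.4% of all genes, and 5 fell, against 17.2%, with a median of -0.22. *Mbp*, which encodes myelin basic protein and whose locus also makes transcripts outside glia, rose by 1.83 (SE 0.115, adjusted p = 6.35e-13) and *Pmp22* by 0.74 (adjusted p = 1.88e-07). The oligodendrocyte factor *Myrf* fell by 1.29 (adjusted p = 7.27e-12) and the myelin enzyme gene *Cnp* by 0.36 (adjusted p = 0.00405). In O4AID *Mbp* went from 48.4 to 96.1 CPM between 0 and 24 h, and 0 of 10 listed genes compared were 2-fold higher, against 3.40% of all genes. The glial marker *Mag* held at most 10 reads in any library.

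Ligands of the receptor encoded by *Pth1r* were scarce, while other partners were not. *Pth* and *Pthlh*, which encode the hormones bound by *Pth1r*, held at most 1 and 3 reads in any library. The scaffold *Slc9a3r1*, which binds the receptor, rose by 0.33 in CreER (adjusted p = 1.7e-05) and stood at 2043 reads at 0 h and 943 at 24 h in O4AID. Around *Edn1*, 2 of 5 tested genes rose in CreER, both from levels near 0.1 CPM: the ligand *Edn3* to 0.738 CPM (log2 fold change 2.75, adjusted p = 0.000198) and the receptor *Ednra* to 0.457 CPM (1.88, adjusted p = 0.0192). Under total-count scaling 1 further gene of this list was called lower. The converting enzyme *Ece1*, at -0.05 in CreER (adjusted p = 0.449), went from 90 to 450 reads in O4AID between 0 and 24 h. *Prr15l*, the closest relative of *Prr15*, rose by 0.76 (adjusted p = 0.00209).

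**Figure D4:**
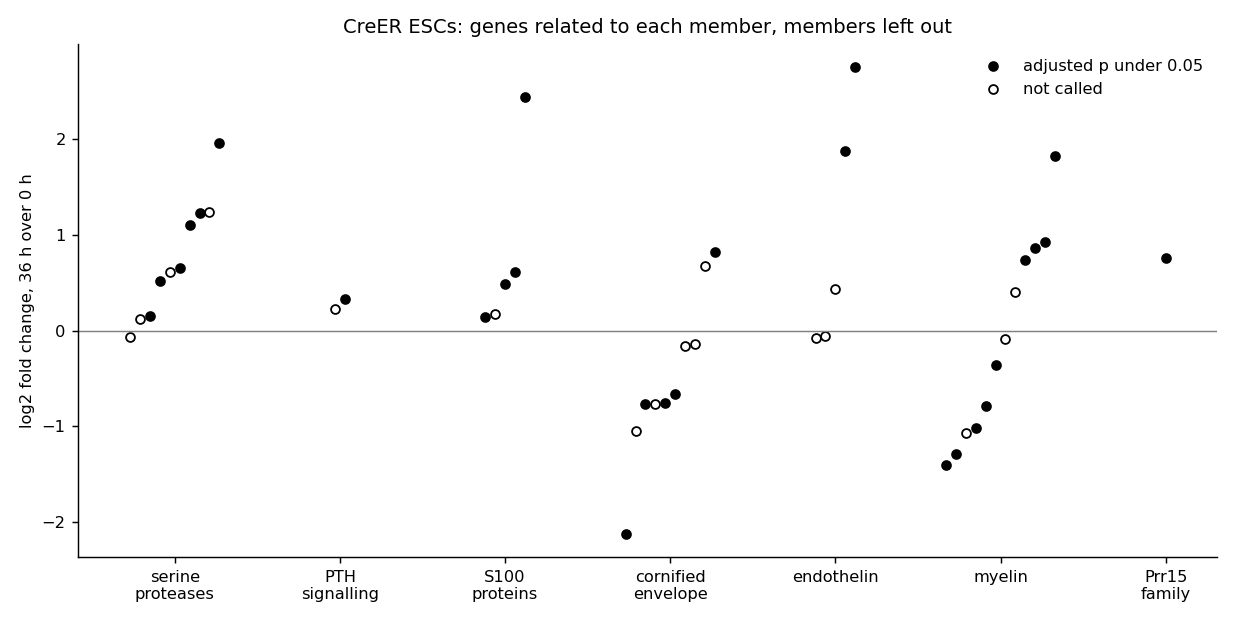
Log2 fold change between 36 and 0 h in CreER for each tested gene of the 7 related lists, sorted within a list, with the 8 genes themselves left out. Filled points passed an edgeR adjusted p of 0.05 and open points did not. Serine proteases and S100 genes lie mostly above 0, cornified envelope genes mostly below, and myelin genes on both sides.

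The 300-base windows around the start sites of the 8 genes were searched for the AhR core GCGTG and the octamer ATGCAAAT bound by OCT4, on both strands. GCGTG, whose reverse complement is CACGC, occurred in 3 of the 11 windows of these genes (27.3%), those of *S100a13*, *Ncmap* and *Pth1r*, and in 32.4% of all 32851 windows, so its share was near that of all windows. The match in *S100a13* lies 190 bases before its start site. The octamer occurred in no window of the 8 genes and occurs in 1.74% of all windows. A match is a run of letters in a short window, and its absence says nothing about sites elsewhere.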

How the data were processed

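RNA sequencing of 15 libraries of mouse ESCs was re-analysed from deposited gene counts. The authors depleted ribosomal RNA, made directional paired-end libraries, trimmed reads (Trim Galore 0.1.4), aligned them to GRCm38 (TopHat2 2.1.0) and counted them per Ensembl gene (featureCounts 1.5.1), and the deposited files hold these raw counts. Strand and multiple-match settings of the counting were not stated. Their normalised table was not used, and 0 columns of other samples were met. The 92 spike-in entries held 0 reads and were left out, leaving 48709 genes.

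Groups came from the sample labels. For CreER, edgeR 4.0.16 in R 4.3.3 was run with its quasi-likelihood F test (two-sided, TMM factors, filterByExpr, robust dispersion, prior count 0.125), all 10 CreER libraries in 1 fit, over 18969 genes, with Benjamini-Hochberg adjustment and a call at an adjusted p under 0.05. The method was tested on simulated data first. Each SE given is the absolute log2 fold change divided by the square root of the F statistic, not a value that edgeR reports. The study's NOISeq-sim procedure simulates replicates and was not used. O4AID times have 1 library each, so no p-value was computed. Their levels carry 95% Wilson intervals and their CPM ratios exact conditional binomial intervals (SciPy 1.17.1), which cover counting error only since reads carry no molecular identifiers. A 2-fold call used TMM CPM plus 1, among genes with at least 10 reads in the 2 libraries.

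Replicates differed by more than sampling noise (chi-square over degrees of freedom 3.27 to 7.76) and were counted as separate libraries. The genes and the lists of relatives and markers were chosen with earlier results of these data known. Besides the 8 genes, those named were the genes ranking around them in the contrasts that chose them, the 2 genes most like each, their protein-coding neighbours and up to 4 genes of each list by expression, called ones first, of which 2 genes are not reported here. Reads of overlapping genes were not separated. Alternatives were RLE and total-count scaling, other filters, DESeq2 1.42.0, only the libraries compared, a replicate block, each CreER library left out, pseudocounts of 0.1 and 5 CPM, the 1.5 h library as reference, and correlations without centring. Promoter sequences were taken from RefSeq (GRCm38.p6) and positions from GENCODE M21 on the same build. All 8 genes were matched by symbol.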

Additional observations from a re-analysis of the deposited data

Results flagged for a closer look

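*Ncmap* went opposite ways in the lines at 24 h. In CreER both 24 h libraries, at 2.42 and 2.17 CPM, lay above both 0 h libraries, at 0.820 and 0.594 CPM, whereas in O4AID the 24 h library lay below the 0 h library, with a log2 change of -0.84 on the scale of CPM plus 1. *Edn1* was listed for the same reason, although its CreER change did not pass the test (0.28, edgeR adjusted p = 0.145). Its CreER libraries stood at 6.50 and 5.96 CPM at 24 h against 4.96 and 5.35 CPM at 0 h, and its O4AID log2 change was -0.76. The difference between the lines was not tested for either gene, since each O4AID time has 1 library, and the lines also differ in strain, drug and untreated level.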

How the results depend on the processing

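Of 121 recomputed counts, 94 stayed within 1.5 times their reported value. The 5 genes higher at CreER 24 h than at 12 h, and the 2 of the O4AID-chosen genes higher at 24 h than at 0 h, were as many under every alternative run, the replicate block included, and leaving out 1 library gave 5 to 5 and 2 to 2. The 2 genes higher at 18 h than at 12 h became 1 with DESeq2 and 0 to 2 on leaving out 1 library. The 2 genes higher at 24 h than at 18 h, whose alternatives were added after seeing the data, ran from 0 to 2 on leaving out 1 library and were 2 under each other alternative. The 2 O4AID-chosen genes higher at 18 h than at 0 h became 1 with RLE or total-count scaling, no filter, only the 4 libraries compared, DESeq2 or the replicate block, and 1 to 2 on leaving out 1 library. The count of 0 at 12 h was 0 throughout. With a pseudocount of 5 CPM, 0 instead of 1 of the CreER-chosen genes passed 2-fold in O4AID at 24 h, since *Pth1r* is low there. Of all 8 genes, alternatives added after seeing the data gave 5 at 1.5 h with 0.1 CPM in place of 2, and with 5 CPM 0 at 1.5 h, 2 at 6 h and 3 at 10 and 24 h in place of 2, 5, 5 and 5. Without centring, 5 of the 16 most alike genes were named again. Total-count scaling moved the median of all genes most in CreER at 36 h against 0 h, from 0.007 to -0.078 on the log2 scale. Against the 1.5 h library *Prr15* at 24 h was at -0.32. *Edn1* between 12 and 24 h was at 0.06 and ran from -0.01 to 0.13, reaching -0.01 without replicate 1 of 24 h, and between 12 and 18 h it was at -0.08 and ran from -0.209 to 0.052, reaching 0.052 without replicate 2 of 18 h. Replicate numbers paired no samples: deviations of same-numbered libraries correlated at -0.0214 to 0.0477 between times, and the replicate block changed no other call. Depth limits *Sprr2a1* and *Prr15* in CreER, where they hold at most 9 reads, and the untreated O4AID levels of 4 genes with 10 to 17 reads.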
